A study of Mus musculus with 6 samples.

Results

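The cytosolic heat shock chaperones were examined in livers of fasted mice with and without CREBH, a membrane-bound liver transcription factor encoded by Creb3l3. The group was a list of 10 genes given by name: the transcription factor gene Hsf1 and the chaperone and co-chaperone genes Hspa1a, Hspa1b, Hspa8, Hsph1, Hsp90aa1, Hsp90ab1, Dnajb1, Hspb1 and Bag3. Each was found once among the 55536 gene identifiers of the count files, through the symbols of GENCODE M21, and all 10 passed the filter on low counts that left 15589 genes for testing. The 2 groups were wild-type mice (WT) and CREBH-knockout mice (CREBH-KO), both fasted for 14 h overnight, with 3 liver samples each. The labels give no strain, sex, age or exon of the knockout, and no other treatment. They call the samples independent but do not tie each to its own mouse, so the p-values measure the spread between samples, which may be technical. Replicate numbers only name the libraries.

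Heat shock factor HSF1 is held inactive by chaperones and, when unfolded protein occupies them, binds heat shock elements, which are inverted repeats of the letters GAA, and drives chaperone genes. The products act in sequence on client proteins: HSP40 proteins such as DNAJB1 deliver them to HSP70, HSP110 (HSPH1) and BAG proteins release nucleotide from HSP70, and HSP90 completes the folding of kinases and steroid receptors. Small heat shock proteins such as HSPB1 hold unfolded protein without ATP. HSPA8 and HSP90AB1 are the constitutive forms, and HSPA1A, HSPA1B and HSP90AA1 the stress-induced forms.

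Of the 10 genes, 4 were higher in CREBH-KO, none was lower and 6 did not pass, 2 of these with an unadjusted p under 0.05 (edgeR's quasi-likelihood test; p adjusted over all tested genes by the Benjamini-Hochberg method and under 0.05). None was lower in DESeq2 or limma-voom either. In edgeR 6 of the 10 genes had an unadjusted p under 0.05, against 25.2% of all tested genes. In simulated counts the tests made more false calls than the nominal rate. Among all tested genes 3.91% were higher and 6.46% were lower by the same rule. The 4 genes were Hspa1a, Hsph1, Hsp90aa1 and Hspa8, with log2 fold changes of 2.13, 1.08, 0.87 and 0.43. The sign was positive for 9 of the 10 genes, against 53.1% of all tested genes, and their median log2 fold change was 0.42, against 0.02 for all tested genes. For 5 of the genes every CREBH-KO library was above every WT library, and for none was every one below. Of all tested genes 30.6% separated the groups in this way in either direction and 15.0% were higher. Together the 10 genes took 0.206% to 0.216% of the gene counts in WT libraries and 0.243%, 0.322% and 0.313% in CREBH-KO 1, 2 and 3.

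The rise was uneven within the knockout group. CREBH-KO 2 and CREBH-KO 3, whose labels report a lost file of first reads, were both above every WT library for 8 of the 10 genes, against 20.6% of all tested genes. CREBH-KO 1, whose label reports no loss, lay within the WT range for 5 of the 10 and above it for the other 5. The share of all tested genes placed in these ways was not counted, so this does not show CREBH-KO 1 as unchanged. With CREBH-KO 1 as the only knockout library 0 of the 10 were called, and without it 5. Leaving out WT 2 gave 0 calls, and leaving out WT 1, WT 3, CREBH-KO 2 or CREBH-KO 3 gave 1. Limma-voom gave 2. Whether the lost files play a part cannot be told apart from differences between the samples.

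**Figure D1:**
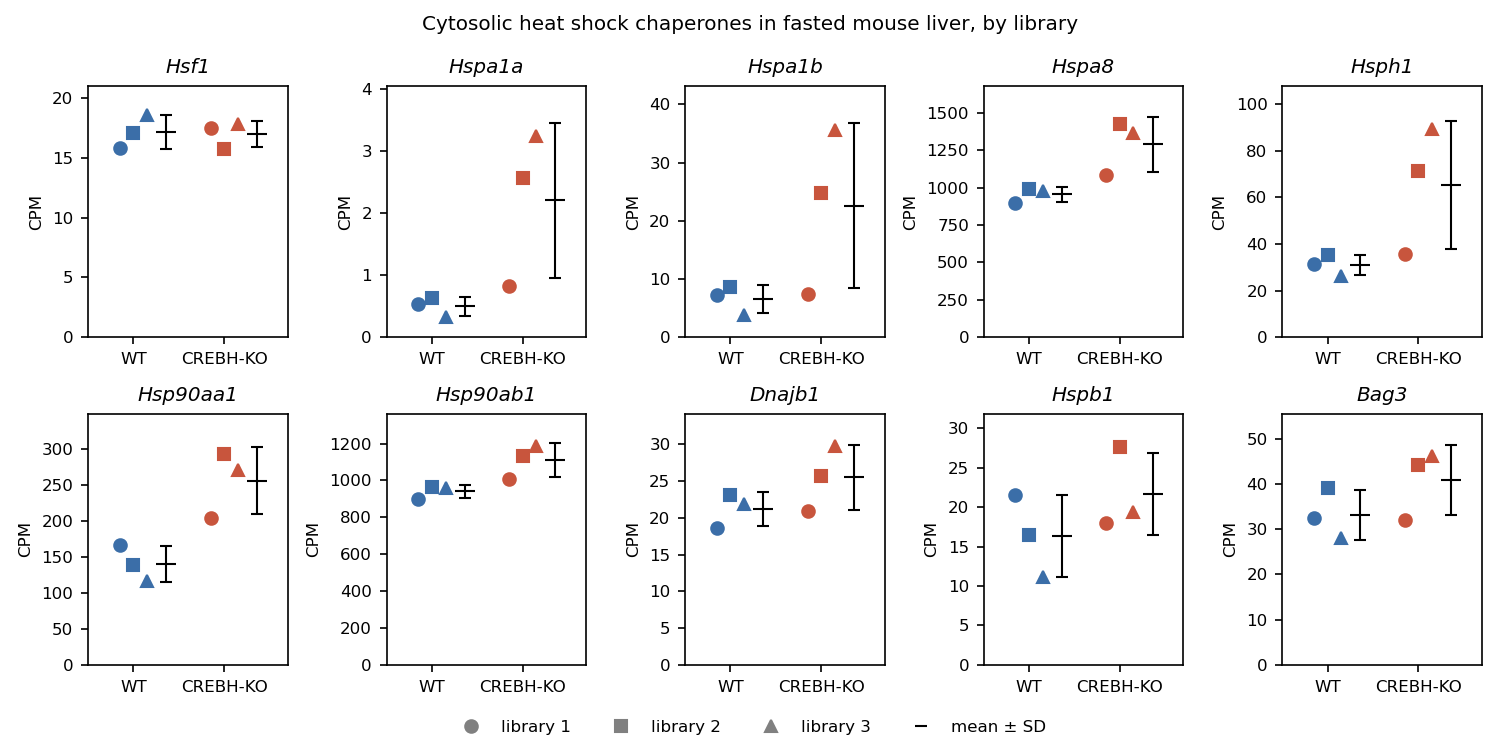
Normalised level (y axis from 0) in CPM, the usual unit of counts scaled to a common library size, of the 10 genes in each of the 3 WT (blue) and 3 CREBH-KO (red) libraries, with mean ± SD in black. Hspa1b stood at 24.8 and 35.7 CPM in CREBH-KO 2 and 3 and at 7.41 CPM in CREBH-KO 1, inside the WT range of 3.84 to 8.67.

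Creb3l3 itself checked the labels. It stood at 467, 496 and 495 CPM in WT 1, 2 and 3 and at 57.4, 45.0 and 46.4 CPM in CREBH-KO 1, 2 and 3. All 3 CREBH-KO libraries were far below WT (log2 fold change -3.29 ± 0.11 SE, edgeR adjusted p = 3.00e-06), and CREBH-KO 1 was the highest of the 3. Reads counted in genes numbered 28106243 to 39288819 per library. Hepatocyte markers matched the labelled tissue, with a summed level of 93706 to 106718 CPM in WT and 92202 to 100227 CPM in CREBH-KO.

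Hsf1, the regulator of the group (chr15:76477422-76501913, plus strand, GRCm38), did not pass. Its level was 15.8, 17.1 and 18.6 CPM in WT 1, 2 and 3 and 17.5, 15.7 and 17.8 CPM in CREBH-KO 1, 2 and 3. The groups overlapped fully, and the log2 fold change was -0.01 ± 0.11 (SE, n = 3 each, edgeR adjusted p = 0.956). Its sign turned under other scalings, to 0.06 with library size alone. HSF1 is mostly controlled at the protein level, which RNA counts do not measure.

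The stress-inducible HSP70 genes Hspa1a (chr17:34969190-34972156) and Hspa1b (chr17:34956436-34959238) lie side by side on the minus strand, each with 1 exon that holds the coding sequence. Their coding sequences of 1923 and 1926 bases differed by 8 substitutions and 3 bases present only in Hspa1b, with 99.6% identity over the aligned bases and an identical run of 638 bases. Of the 100-base windows of the Hspa1a transcript, 48.6% also occur in another annotated gene, mostly Hspa1b, and 49.9% of those of Hspa1b occur in another gene. HTSeq set aside 13.7% to 15.0% of the listed reads of each library as aligned to several places; how many of these came from the HSP70 pair was not tested. A stretch where the 2 genes differ, in the last part of the coding sequence, is shown with the differing bases in capitals; where exactly the added bases fall among the repeated letters is the aligner's choice. The stretches are chr17:34970021-34970077 for Hspa1a and chr17:34957100-34957159 for Hspa1b, both on the minus strand, from GENCODE M21 transcripts (GRCm38).
Hspa1a: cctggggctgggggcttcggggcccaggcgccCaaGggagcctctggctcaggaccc
Hspa1b: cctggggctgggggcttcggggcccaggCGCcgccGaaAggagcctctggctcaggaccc

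Hspa1a stood at 0.543, 0.626 and 0.325 CPM in WT 1, 2 and 3 and at 0.820, 2.57 and 3.24 CPM in CREBH-KO 1, 2 and 3. These are low counts, 21, 20 and 10 reads in WT against 28, 76 and 106 in CREBH-KO. Every CREBH-KO library was above every WT library, CREBH-KO 1 only narrowly. The mean rose from 0.498 ± 0.155 to 2.21 ± 1.25 CPM (SD, n = 3 each), 4.39-fold, with a log2 fold change of 2.13 ± 0.51 SE (edgeR adjusted p = 0.0320). Of the exonic bases of Hspa1a, 19.0% lie within Gm20481 on the opposite strand, and the strand setting of the counting is not given in the sources used here. Its call was lost without any 1 library except CREBH-KO 1 (adjusted p of 0.0565 to 0.114) and in limma-voom (0.0965).

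Hspa1b gave most of the reads of the pair, at 7.19, 8.67 and 3.84 CPM in WT 1, 2 and 3 and 7.41, 24.8 and 35.7 CPM in CREBH-KO 1, 2 and 3. CREBH-KO 1 sat inside the WT range, whereas CREBH-KO 2 and CREBH-KO 3 were 3.35 and 4.82 times CREBH-KO 1. The log2 fold change of 1.78 ± 0.49 SE missed the threshold (edgeR adjusted p = 0.0519). Without CREBH-KO 1 it was 2.20 ± 0.29 and passed (adjusted p = 0.00269), and with CREBH-KO 1 alone it was 0.15 ± 0.40 (adjusted p = 0.917). It also passed with scaling by library size alone (adjusted p = 0.0404) or by upper-quartile factors (0.0488). With no filter on low counts it passed too (adjusted p = 7.25e-09), but its log2 fold change was 1.76, no larger than in the main fit. The lower p came with a smaller SE for the same libraries, so it is not read as stronger evidence of a rise. In all, Hspa1b passed in 4 of 15 alternative analyses. It did not pass in DESeq2, limma-voom or edgeR's robust fit, nor without any 1 library other than CREBH-KO 1 (adjusted p up to 0.174). The SD of log2(CPM + 0.1) over the CREBH-KO libraries was 1.18 for Hspa1b and 0.995 for Hspa1a, where the median of all tested genes was 0.169 and the 90th percentile 0.536.

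Counted as 1 gene, Hspa1a and Hspa1b gave 7.73, 9.29 and 4.16 CPM in WT 1, 2 and 3 and 8.22, 27.4 and 38.9 CPM in CREBH-KO 1, 2 and 3. CREBH-KO 1 again fell inside the WT range. The sum was 3.51-fold higher in CREBH-KO (log2 fold change 1.81 ± 0.49 SE, edgeR adjusted p = 0.0473). This call was lost in DESeq2 (adjusted p = 0.0544), in limma-voom (0.139), in edgeR's robust fit (0.181) and without any 1 library except CREBH-KO 1. Hspa1a made up 6.73% to 7.81% of the reads of the pair in WT and 8.33% to 9.96% in CREBH-KO. The exact 95% binomial interval of each library overlapped that of every other (3.81% to 13.9% in WT 3, the widest), so a change in the balance of the 2 genes was not detectable at this depth; the intervals cover counting error only.

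The promoters of the pair are shown because these genes had the 2 largest fold changes of the group and HSF1 is known to bind upstream of them. The 250 bases before the start site, from RefSeq (GRCm38.p6), were searched for GAANNTTC and TTCNNGAA, the smallest inverted pairs of a heat shock element, which read the same on both strands. Capitals mark the matches. The windows are chr17:34972157-34972406 for Hspa1a and chr17:34959239-34959488 for Hspa1b, both on the minus strand.
Hspa1a: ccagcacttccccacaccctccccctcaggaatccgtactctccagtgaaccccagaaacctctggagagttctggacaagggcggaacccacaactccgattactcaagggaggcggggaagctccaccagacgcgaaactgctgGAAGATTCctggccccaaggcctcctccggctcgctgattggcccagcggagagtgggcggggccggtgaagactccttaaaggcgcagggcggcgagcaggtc
Hspa1b: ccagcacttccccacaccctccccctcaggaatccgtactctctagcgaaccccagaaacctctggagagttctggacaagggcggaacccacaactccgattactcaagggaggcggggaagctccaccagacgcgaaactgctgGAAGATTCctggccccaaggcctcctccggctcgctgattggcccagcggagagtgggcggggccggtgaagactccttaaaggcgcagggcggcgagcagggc

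The 2 windows differed at 3 of 250 bases, and both held 1 pair, GAANNTTC, from 104 to 97 bases before the start. Of 32851 promoter windows of this length, 6.69% held GAANNTTC, 7.17% TTCNNGAA and 12.8% at least 1 of them. Each window also held CCAAT on 1 of the strands, as did 33.8% of all windows, and neither held TATAAA (12.4% of all windows). A longer run of 3 units in alternating direction occurred in 0.466% of all windows and in none of those of the group. Windows were on file for 6 of the 10 genes, and those of Hsf1, Hspa8, Hsp90aa1 and Hsp90ab1 were not used here. A match is a description of the letters and not a measured binding site.

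Hsph1 (chr5:149614287-149636376, minus strand) encodes HSP110, the nucleotide exchange factor of HSP70 and part of the cytosolic disaggregase. It stood at 31.5, 35.1 and 26.4 CPM in WT 1, 2 and 3 and at 35.5, 71.4 and 89.6 CPM in CREBH-KO 1, 2 and 3. CREBH-KO 1 was barely above WT 2, and the other CREBH-KO libraries were 2.01 and 2.52 times CREBH-KO 1. The mean went from 31.0 ± 4.40 to 65.5 ± 27.5 CPM, 2.11-fold (log2 fold change 1.08 ± 0.28 SE, edgeR adjusted p = 0.0400). The call was lost without any 1 library except CREBH-KO 1 (adjusted p of 0.0712 to 0.129), in limma-voom (0.0695) and in edgeR's robust fit (0.146). With CREBH-KO 1 alone the log2 fold change was 0.17 ± 0.18. Hsph1 shared no 100-base window with another annotated gene. RefSeq lists 2 starts for it, and the windows of both held the same TTCNNGAA pair. Both starts and the pair lie inside the annotated gene, so the pair is before these starts but not outside the gene. It is shown in capitals on the minus strand of chr5:149636351-149636380.
Hsph1: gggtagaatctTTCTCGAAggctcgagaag

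Hspa8 (chr9:40800984-40810087, plus strand) encodes HSC70, the constitutive cytosolic HSP70. It stood at 896, 990.1 and 977 CPM in WT 1, 2 and 3 and at 1082, 1423 and 1363 CPM in CREBH-KO 1, 2 and 3. All CREBH-KO libraries were above WT, and CREBH-KO 1 was the lowest of them. The mean rose from 955 ± 51.0 to 1289.6 ± 182 CPM, 1.35-fold (log2 fold change 0.43 ± 0.11 SE, edgeR adjusted p = 0.0435). Its call was lost without any 1 library except CREBH-KO 1 (adjusted p of 0.0859 to 0.148). Of its 100-base windows 28.2% occur in other annotated genes, mostly the processed pseudogene Gm15459, which had 0 counts in all 6 libraries. Small nucleolar RNA genes of the Snord14 family cover 6.09% of its exonic bases.

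The ratio of constitutive to inducible HSP70 reads moved with these changes. Hspa8 had 116, 107 and 235 times the reads of Hspa1a and Hspa1b together in WT 1, 2 and 3. In CREBH-KO 1 the ratio was 132, inside the WT range, and in CREBH-KO 2 and CREBH-KO 3 it was 52.0 and 35.0. Even there, the constitutive gene had far more reads than the inducible pair.

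Hsp90aa1 (chr12:110690605-110702728, minus strand), the inducible HSP90 alpha gene, gave the smallest adjusted p of the group. It stood at 166, 138 and 116 CPM in WT 1, 2 and 3 and at 203, 292 and 270.3 CPM in CREBH-KO 1, 2 and 3. The groups did not overlap, and CREBH-KO 1 lay between WT and the other CREBH-KO libraries. The mean rose from 140.0 ± 24.9 to 255 ± 46.4 CPM, 1.82-fold (log2 fold change 0.87 ± 0.16 SE, edgeR adjusted p = 0.0105). Its call held in 13 of 15 alternative analyses and was lost without WT 2 (adjusted p = 0.0526) and with CREBH-KO 1 alone (0.51 ± 0.19, adjusted p = 0.280). Of its 100-base windows 38.0% occur in other genes, mostly the transcribed pseudogene Gm12346, which had 43 to 162 counts per library against 3568 or more for Hsp90aa1.

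Hsp90ab1 (chr17:45567775-45573271, minus strand), the constitutive HSP90 beta gene, stood at 902, 964 and 961 CPM in WT 1, 2 and 3 and at 1006, 1134 and 1185 CPM in CREBH-KO 1, 2 and 3. Every CREBH-KO library was above every WT library, but by little. The log2 fold change of 0.23 ± 0.09 SE did not pass (edgeR adjusted p = 0.144; unadjusted p = 0.0295). Per length, Hsp90aa1 was present at 0.0921 to 0.140 of the level of Hsp90ab1 in WT and at 0.154, 0.196 and 0.174 in CREBH-KO 1, 2 and 3. The alpha form was a larger part of the HSP90 transcripts in each CREBH-KO library than in WT.

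**Figure D2:**
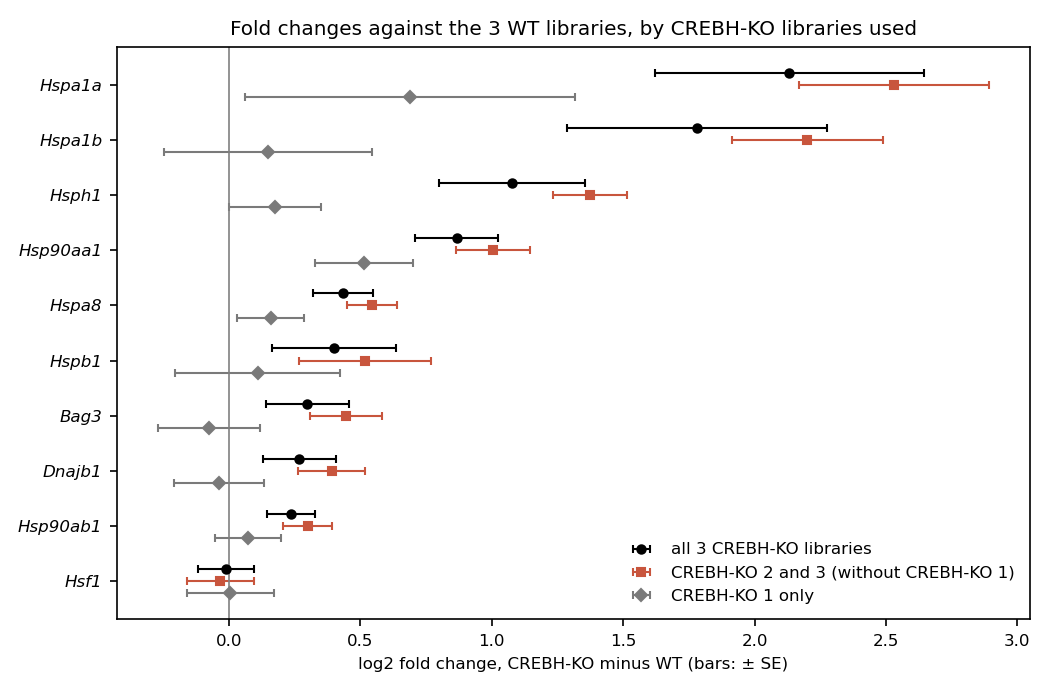
Log2 fold changes against the 3 WT libraries (x axis, bars ± SE) with all CREBH-KO libraries (black), without CREBH-KO 1 (red) and with CREBH-KO 1 alone (grey). With CREBH-KO 1 alone, which is 1 library, the values ran from -0.08 for Bag3 to 0.69 for Hspa1a. Without it those of Hspa1a, Hspa1b, Hsph1, Hsp90aa1 and Hspa8 passed.

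The co-chaperone and small chaperone genes of the group did not pass. Dnajb1 (chr8:83608193-83612653, plus strand), the HSP40 that activates the ATPase of HSP70, stood at 18.6, 23.1 and 21.9 CPM in WT 1, 2 and 3 and at 20.9, 25.7 and 29.8 CPM in CREBH-KO 1, 2 and 3. CREBH-KO 1 lay inside the WT range and the other two were above it (log2 fold change 0.27 ± 0.14 SE, edgeR adjusted p = 0.274). Bag3 (chr7:128523616-128546981, plus strand), which couples HSP70 to small heat shock proteins and selective autophagy, stood at 32.5, 39.0 and 28.0 CPM in WT 1, 2 and 3. In CREBH-KO 1, 2 and 3 it stood at 32.0, 44.3 and 46.2 CPM, with the same arrangement (0.30 ± 0.16 SE, edgeR adjusted p = 0.284). With CREBH-KO 1 alone the signs turned, to -0.04 for Dnajb1 and -0.08 for Bag3. Neither the 2 windows of Dnajb1 nor that of Bag3 held GAANNTTC or TTCNNGAA. The second window of Dnajb1 (chr8:83608298-83608547) lies inside the annotated gene.

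Hspb1 (chr5:135887919-135889563, plus strand) encodes HSP25, a small heat shock protein that binds unfolded protein and actin. It varied within both groups, at 21.5, 16.5 and 11.1 CPM in WT 1, 2 and 3 and 18.0, 27.6 and 19.4 CPM in CREBH-KO 1, 2 and 3. The groups overlapped (log2 fold change 0.40 ± 0.24 SE, edgeR adjusted p = 0.331). The WT libraries spanned 1.94-fold, about as far as those of Hspa1a (1.92-fold) and Hspa1b (2.26-fold). Of the windows of Hspb1, 44.0% occur in the pseudogene Hsp25-ps1, which had 1 to 8 counts per library. Its promoter held 2 GAANNTTC pairs, from 117 to 110 and from 97 to 90 bases before the start, where 1.46% of all windows held at least 2 pairs of either kind. It is shown (chr5:135887669-135887918, plus strand, pairs in capitals) because it held the most pairs of the 6 genes on file, without a change that passed.
Hspb1: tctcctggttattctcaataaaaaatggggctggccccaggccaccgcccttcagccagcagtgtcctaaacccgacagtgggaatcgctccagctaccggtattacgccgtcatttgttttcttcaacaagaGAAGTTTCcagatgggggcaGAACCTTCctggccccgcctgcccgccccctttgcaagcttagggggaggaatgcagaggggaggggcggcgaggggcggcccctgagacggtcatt

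Levels were compared between genes as FPKM, the CPM divided by the exon length in kilobases, with exon lengths taken over all annotated isoforms, which lowers genes with long alternative exons. In WT the order of mean levels was Hsp90ab1 (314 ± 11.6, SD), Hspa8 (222 ± 11.9), Hsp90aa1 (35.6 ± 6.34), Hspb1 (15.9 ± 5.05), Bag3 (13.0 ± 2.17), Dnajb1 (6.61 ± 0.731), Hsph1 (4.27 ± 0.605), Hsf1 (2.42 ± 0.200), Hspa1b (2.34 ± 0.883) and Hspa1a (0.168 ± 0.0524). The libraries of Hspb1 and Bag3 overlapped, as did those of Hsf1 and Hspa1b, so neither pair was separated beyond its spread. In CREBH-KO, Hspa1b (8.07 ± 5.09) and Hsph1 (9.01 ± 3.78) stood above Hsf1 (2.39 ± 0.158) in every library. For Hspa1b this was narrow in CREBH-KO 1 (2.64 against 2.46). Hsph1 was above Hsf1 in every WT library as well. Hspa1b was above Hsf1 in WT 1 (2.56 against 2.23) and WT 2 (3.09 against 2.40) but not in WT 3 (1.37 against 2.62). Hsp90ab1 and Hspa8 together held 86.0% to 89.6% of the reads of the group in WT and 83.3% to 86.2% in CREBH-KO. For Hspa1a, Hspa1b, Hspa8, Hsp90aa1 and Hspb1 the levels are understated where reads that also matched elsewhere were set aside.

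**Figure D3:**
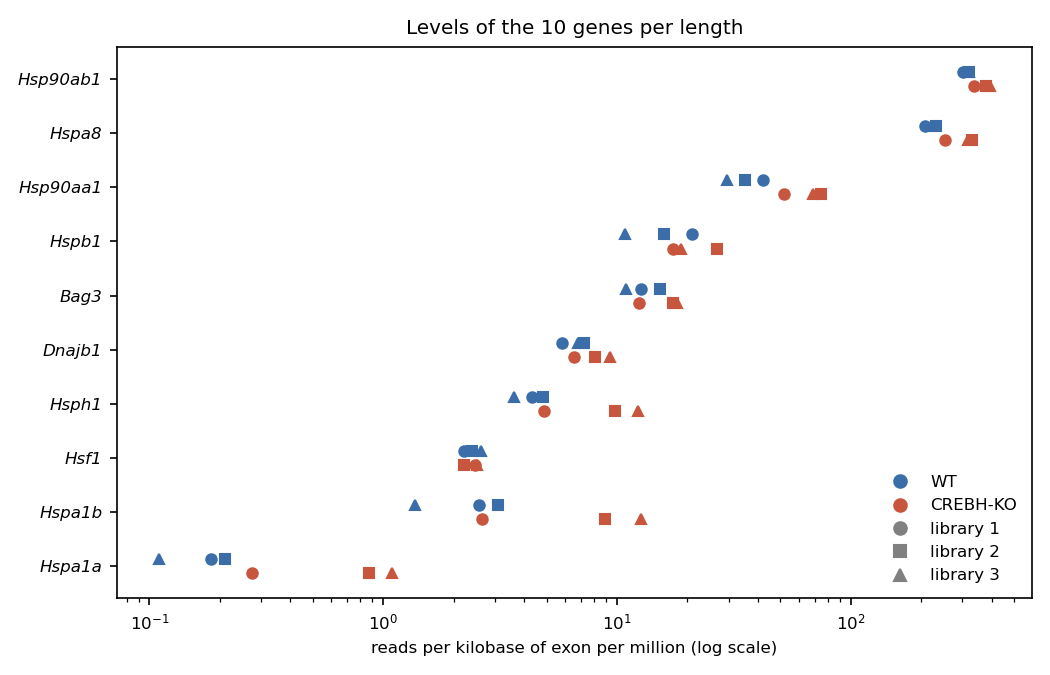
Level of each gene per length (x axis, log scale, FPKM) in each WT (blue) and CREBH-KO (red) library, ordered by the WT mean. Hsp90ab1 and Hspa8 lie at 208 or more in all 6 libraries and Hspa1a at 1.09 or less.

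The rest of the cytosolic chaperone network was called about as often as all tested genes. Of 102 tested genes in 8 lists of partners, relatives and further heat-induced genes, 6 were higher, 3 were lower and 93 did not pass, where 3.91% of all tested genes were higher and 6.46% were lower. The sign was positive for 70 of the 102, against 53.1% of all tested genes. Their median log2 fold change was 0.13, against 0.42 for the 10 heat shock genes and 0.02 for all tested genes. The fit with CREBH-KO 1 alone has 1 knockout library and calls few genes of any kind, so no count from it is given here. The higher calls numbered 3 without WT 1 or WT 3, and 1 when WT 2, CREBH-KO 2 or CREBH-KO 3 was left out. The lower calls numbered 1 without WT 2 and 0 when WT 3, CREBH-KO 2 or CREBH-KO 3 was left out.

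Among 23 tested co-chaperones of HSP90, 3 were higher and none was lower, with a median of 0.15. Stip1, the HOP adaptor that hands clients from HSP70 to HSP90, stood at 58.3, 59.3 and 52.0 CPM in WT 1, 2 and 3 and 63.3, 80.3 and 79.5 CPM in CREBH-KO 1, 2 and 3. It followed the arrangement of Hspa8, with CREBH-KO 1 the lowest of its group (log2 fold change 0.40 ± 0.11 SE, edgeR adjusted p = 0.0482). Rpap3, of the R2TP co-chaperone complex, rose by 0.67 ± 0.12 and Nudc by 0.30 ± 0.08 on the log2 scale (edgeR adjusted p = 0.0109 and 0.0426). Rpap3 was high in all 3 CREBH-KO libraries (12.3, 14.5 and 12.5 CPM against 7.68 to 8.62 CPM in WT). Of the partners named whatever their values, the HSP90 activator Ahsa1 (0.25), the immunophilin Fkbp4 (0.27) and the kinase adaptor Cdc37 (0.03) did not pass (edgeR adjusted p of 0.0789, 0.108 and 0.835). Ahsa1 passed with scaling by library size alone (adjusted p = 0.0453) and Fkbp4 without CREBH-KO 1 (0.0327). The calls of Stip1 and Nudc were lost without any 1 library except CREBH-KO 1 (adjusted p up to 0.159 and 0.171). Stip1 was also lost in limma-voom (adjusted p = 0.0512) and with DESeq2 size factors in edgeR (0.0520), and Nudc with no filter on low counts (0.0786).

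No gene of the other HSP70 and HSP110 genes (7 tested), of the other HSP40 genes (15) or of the HSP70 exchange factors (8) passed in either direction. Hspa4, the relative of Hsph1 in the HSP110 family, had a log2 fold change of 0.03 ± 0.10 and Dnaja1, an HSP40 of the liver cytosol, -0.04 ± 0.10 (edgeR adjusted p = 0.883 and 0.863). The ubiquitin ligase of HSP70 clients, Stub1, had 0.19 ± 0.11 (edgeR adjusted p = 0.327). At an unadjusted p under 0.05 the lists held 0, 2 and 3 genes, where 25.2% of all tested genes were under it. DESeq2 called 1 HSP40 gene higher and 1 exchange factor gene lower, and limma-voom called none in these lists. In edgeR 1 HSP40 gene was called higher with scaling by library size alone or by upper-quartile factors. The same number was called with no filter on low counts and without WT 1. Without WT 3, 1 exchange factor gene was called higher.

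Among 17 tested subunits of the chaperonin CCT and of prefoldin, Cct3 rose by 0.36 ± 0.09 and the prefoldin-like Uri1 fell by 0.37 ± 0.08 on the log2 scale (edgeR adjusted p = 0.0357 and 0.0216), and 15 of the 17 had a positive sign. Of 4 tested small heat shock genes, Hspb6 fell by 0.48 ± 0.11 (edgeR adjusted p = 0.0273), from 15.3 to 18.1 CPM in WT to 11.0 to 12.3 CPM in CREBH-KO. Hspb8, the partner of BAG3, had -0.02 ± 0.08 and Cryab 0.38 ± 0.22, and neither passed (edgeR adjusted p = 0.923 and 0.325). None of 13 tested heat shock factors and regulators passed in edgeR, DESeq2 or limma-voom, and 5 had an unadjusted p under 0.05 in edgeR (25.2% of all tested genes), Hsf2 (0.33 ± 0.12) and the HSF1-binding protein gene Hsbp1 (-0.19 ± 0.07) included (edgeR adjusted p = 0.120 and 0.141). The calls of Cct3 and Hspb6 were lost without any 1 of the 6 libraries (adjusted p of 0.0501 to 0.136), that of Uri1 when WT 3, CREBH-KO 2 or CREBH-KO 3 was left out, and those of Hspb6 and Uri1 with scaling by library size alone.

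Of 15 further heat-induced genes, Hmox1 and Hspe1 were higher and Mt2 was lower. Hmox1, heme oxygenase, stood at 7.96, 6.41 and 10.4 CPM in WT 1, 2 and 3 and 11.5, 14.2 and 17.2 CPM in CREBH-KO 1, 2 and 3 (log2 fold change 0.79 ± 0.20 SE, edgeR adjusted p = 0.0399). The metallothionein gene Mt2 went the other way, at 8.87, 5.76 and 6.31 CPM in WT and 4.57, 1.76 and 1.96 CPM in CREBH-KO 1, 2 and 3 (-1.33 ± 0.35, edgeR adjusted p = 0.0443). For Mt2 too, CREBH-KO 1 was nearest to WT. Hspe1, the mitochondrial co-chaperonin, rose by 0.29 ± 0.08 (edgeR adjusted p = 0.0409). Calls were lost without any 1 library for Hspe1 and without any 1 except CREBH-KO 1 for Mt2. That of Hmox1 was lost when WT 1, WT 2, CREBH-KO 2 or CREBH-KO 3 was left out. Mt2 was also lost in edgeR with upper-quartile factors (adjusted p = 0.0519) and in the robust fit (0.0524), and Hspe1 with no filter on low counts (0.0816).

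The relatives of the group in other compartments mostly did not pass. Of 6 tested, Trap1, the mitochondrial HSP90, fell by 0.29 ± 0.07 on the log2 scale (edgeR adjusted p = 0.0374). Its call was lost with scaling by library size alone (adjusted p = 0.114) or by upper-quartile factors (0.0569) and without any 1 library except WT 1. The reticulum HSP70 gene Hspa5 had 0.32 ± 0.11 and the reticulum HSP90 gene Hsp90b1 0.09 ± 0.10 (edgeR adjusted p = 0.0995 and 0.598). Hspa5 passed in DESeq2 (adjusted p = 0.0486), with scaling by library size alone (0.0484) and without WT 1 (0.0282). Hspa5 stood at 779, 676 and 764 CPM in CREBH-KO 1, 2 and 3 and at 534 to 676 CPM in WT, with CREBH-KO 1 the highest library, where the cytosolic Hspa1b was lowest in CREBH-KO 1 of its group. The difference between these genes was not tested. Cold-inducible RNA-binding protein genes, which respond to body temperature, did not pass: Cirbp had -0.11 ± 0.15 and Rbm3 0.28 ± 0.09 (edgeR adjusted p = 0.715 and 0.0874).

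**Figure D4:**
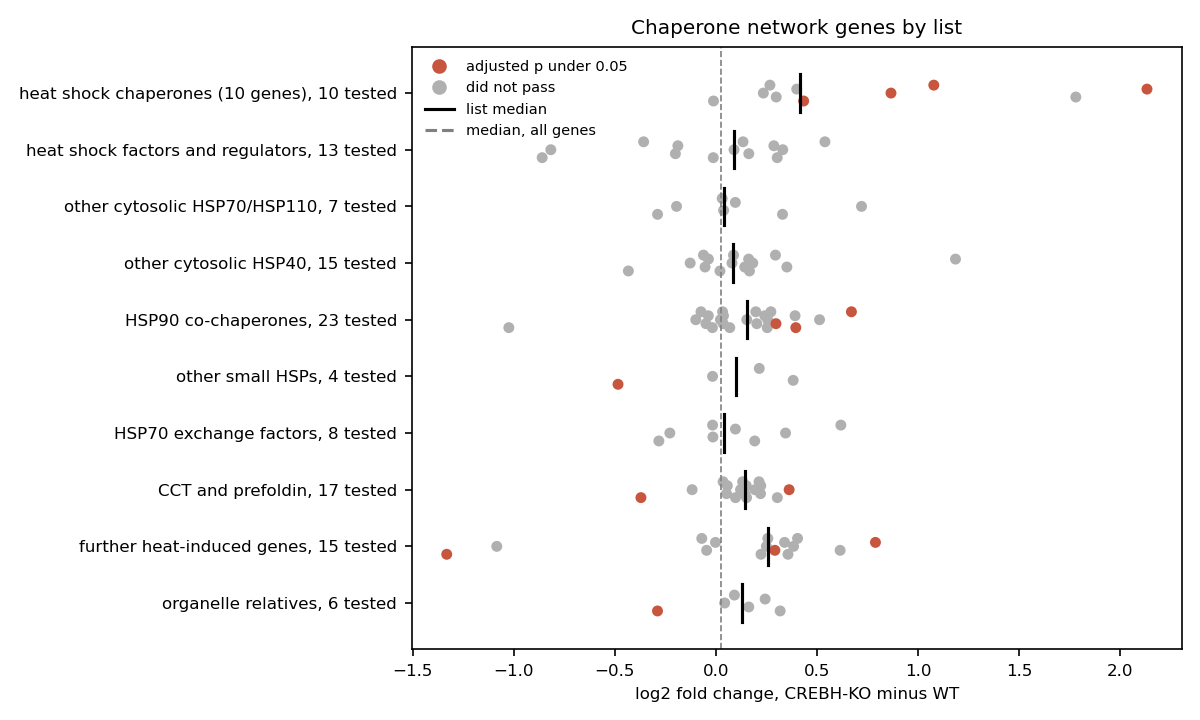
Log2 fold changes (x axis) of the tested genes of each list, red where the adjusted p was under 0.05, with the list median as a black bar and the median of all tested genes dashed. The median of the 10 heat shock genes was 0.42, and those of the other 9 lists drawn lay between 0.04 and 0.26.

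Other cell types and handling were read from marker lists. In these bulk samples fewer cells of a type and less RNA per cell cannot be told apart. Immediate early genes, which respond within minutes to stress and handling, were higher for 4 of 16 tested (Jun 1.39, Dusp1 1.33, Myc 1.28 and Klf6 0.81 on the log2 scale, edgeR adjusted p of 0.00549 to 0.0122). The call of Jun was lost without WT 2 (adjusted p = 0.0612). Their summed level was 219 to 392 CPM in WT and 596, 428 and 495 CPM in CREBH-KO 1, 2 and 3, so the sum was highest in CREBH-KO 1, in large part through Egr1 (86.1, 12.0 and 30.4 CPM) and Junb (81.6, 31.4 and 45.1 CPM), which did not pass. Of the 4 genes that passed, Dusp1 was highest in CREBH-KO 1 and Jun, Myc and Klf6 in CREBH-KO 2. Stellate cell and fibroblast markers were higher for 2 of 10 (Rgs5 0.68 and Dcn 0.56), with sums of 169 to 199.97 CPM in WT and 264, 254 and 237 CPM in CREBH-KO 1, 2 and 3. Smooth and striated muscle markers were higher for 2 of 4 tested (Myh11 1.91 and Acta2 1.48), while Myl9 (1.30) and Tagln (-0.79) did not pass. The muscle markers had sums of 3.62 to 6.23 CPM in WT and 14.7, 9.91 and 18.7 CPM in CREBH-KO 1, 2 and 3. The striated muscle genes Ckm and Myh4 had 0 counts throughout. Beside the counts of these lists, 3.91% of all tested genes were higher. The part of these markers in the chaperone values was not tested.

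Markers of Kupffer cells (0 of 10 passed, 87.9 to 183 CPM in WT and 100.7 to 125 CPM in CREBH-KO) and endothelial cells (0 of 10, 139 to 181 and 154 to 165 CPM) did not pass. Nor did those of lymphocytes (0 of 6, 1.97 to 6.57 and 4.38 to 5.38 CPM), neutrophils (0 of 2, 1.00 to 1.43 and 1.26 to 3.31 CPM) and erythroid cells (0 of 5, 162 to 261 and 154 to 199.9 CPM). At an unadjusted p under 0.05 in edgeR these lists held 1, 3, 0, 0 and 0 genes, again beside 25.2% of all tested genes. Of 5 tested cholangiocyte markers Sox9 was higher (log2 fold change 0.96), with sums of 35.9 to 79.1 CPM in WT and 41.9 to 69.6 CPM in CREBH-KO. Krt7 (0.04) did not pass, nor did 3 markers with a negative sign, Epcam (-1.11), Krt19 (-0.35) and Spp1 (-0.09). Epcam stood at 11.0, 12.7 and 16.7 CPM in WT 1, 2 and 3 and at 11.1, 3.75 and 3.76 CPM in CREBH-KO 1, 2 and 3. Of 12 hepatocyte markers 3 were lower, Cyp2e1 (-1.06), Pck1 (-0.64) and Apob (-0.36), beside 6.46% of all tested genes. Calls were lost without WT 1, WT 2, WT 3, CREBH-KO 1 or CREBH-KO 3 for Acta2, without WT 1, WT 2, CREBH-KO 1 or CREBH-KO 2 for Sox9, for Pck1 when WT 2, WT 3, CREBH-KO 2 or CREBH-KO 3 was left out, and without any 1 library for Apob. Apob was also lost with scaling by library size alone (adjusted p = 0.0893) or by upper-quartile factors (0.0607).

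The genes whose profile over the 6 libraries was most like that of Hspa1a, the called member with the largest fold change, were Hspa1b, Rasgef1b and Gdf15. Likeness was the root mean square difference of log2 CPM centred over the 6 libraries, among 7637 genes with a mean of at least 10 CPM, and was 0.20, 0.41 and 0.45. Gdf15, a stress hormone gene, stood at 4.81, 5.85 and 6.31 CPM in WT 1, 2 and 3 and at 12.4, 28.2 and 22.6 CPM in CREBH-KO 1, 2 and 3. Rasgef1b, a Ras exchange factor gene, stood at 10.7, 17.8 and 16.8 CPM in WT and at 26.8, 69.4 and 68.1 CPM in CREBH-KO. Both were above WT in every CREBH-KO library and lowest of their group in CREBH-KO 1, as Hspa1a was. The shared arrangement follows from their selection by likeness to Hspa1a and is not separate evidence.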

How the data were processed

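RNA from 6 mouse liver samples was sequenced as read pairs on an Illumina HiSeq in 1 lane, per the labels' protocols. The deposited values are read counts per gene, made with HTSeq per the labels; no source used here gives the aligner, genome build, strand setting or read length. All 55536 gene identifiers matched GENCODE M21 (GRCm38). Of all listed reads, 27.4% to 31.2% per library fell in HTSeq's rows that name no gene and stayed out of library sizes.

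Counts were filtered with filterByExpr (minimum count 10, minimum total 15), scaled with TMM factors and tested with edgeR 4.0.16 (R 4.3.3), quasi-likelihood, all 6 libraries, no covariate. CPM used TMM-scaled library sizes, and the SE of a log2 fold change was its size over the root of the F statistic. DESeq2 1.42.0, limma 3.58.1 (voom), edgeR's robust fit, other scalings and filters, each library left out and CREBH-KO 1 alone were alternatives. The tests were checked on simulated data. No replicate pair agreed within sampling noise.

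The members and lists were chosen with earlier results of these data known. Named by rule were the members, all called genes of the network lists, set partners of each list, and the 3 genes most like the called member with the largest fold change.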

Additional observations from a re-analysis of the deposited data

How the results depend on the processing

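All 10 members kept their sign under every alternative except Hsf1, Dnajb1 and Bag3. Against 609 higher and 1007 lower genes in edgeR, no filter on low counts gave 929 and 1527, CREBH-KO 1 alone 76 and 152, and leaving out 1 library 209 to 659 and 449 to 1147. Higher members numbered 4, but 2 in limma-voom and 0 to 5 without 1 library. Higher network genes numbered 6, but 1 to 7 without 1 library. Lower network genes numbered 3, but 1 with library size alone, 6 with no filter and 0 to 3 without 1 library. Hspa1a and Hspa1b as 1 gene (1.81) did not pass in DESeq2 (1.81), limma-voom (1.58) or edgeR's robust fit (1.81), and ranged from 1.33 to 2.23 without 1 library. Signs turned with library size alone for Hsf1 (0.0610), Dnaja1 (0.0395) and Hspb8 (0.0575), with upper-quartile factors for Hsf1 (0.0230) and Hspb8 (0.0182), and with CREBH-KO 1 alone for Hsf1 (0.0043), Dnajb1 (-0.0390), Bag3 (-0.0764), Hspa4 (-0.18), Cdc37 (-0.0698), Stub1 (-0.0131) and Cirbp (0.17). Without 1 library Hsf1 ranged from -0.0801 to 0.0480, Dnaja1 from -0.11 to 0.0702, Hspa4 from -0.0446 to 0.12, Cdc37 from -0.0145 to 0.0702, Hspb8 from -0.0536 to 0.0273 and Cirbp from -0.29 to 0.0474. Higher genes were 37.7% of all calls with TMM, 52.8% with library size alone, which moved the median of all genes from 0.02 to 0.10, and 45.7% with upper-quartile factors. The cause of these shifts was not tested. Depth limits Hspa1a most, at 10 to 106 counts, and the stricter filter left it out. CREBH-KO 1 alone is 1 library, assumed to vary as WT does. No paired analysis was possible because the labels give no replicate numbers; those used here follow accession order and pair no samples.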
